A study of Mus musculus with 8 samples.

Results

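The Toll-like receptor genes *Tlr1*, *Tlr2*, *Tlr3*, *Tlr4*, *Tlr5*, *Tlr6*, *Tlr7*, *Tlr8*, *Tlr9* and *Tlr13* were followed through the m6A peak lists of cultured mouse macrophages. These 10 genes were taken by name from the 21951 protein-coding genes of GENCODE M21, and each listed peak was given to the protein-coding gene whose exons it overlapped most on the same strand. N6-methyladenosine (m6A) is a methyl mark on adenosines within mRNA, placed by a methyltransferase complex whose catalytic subunit is METTL3. The study compared bone marrow-derived macrophages (BMDMs) of 2 WT and 2 KO mice, all C57BL/6 and 8 weeks old, after 7 days of culture with M-CSF, a growth factor for macrophages, at 40 ng/mL. WT mice were *Mettl3* fl/fl Lyz2+/+ and KO mice were *Mettl3* fl/fl Lyz2cre/+, so both groups carried floxed *Mettl3* alleles, and Cre was driven by the *Lyz2* locus, which is active in myeloid cells and does not delete a floxed allele in every cell. From each mouse an m6A pull-down library and an input library were sequenced, 8 libraries in all, and the authors deposited 1 list of m6A peaks per mouse. The lists are called WT-1 and WT-2, and KO-1 and KO-2, and where 4 values are given without names they follow this order.

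Toll-like receptors sense conserved molecules of microbes and so start the innate immune response. *Tlr1*, *Tlr2*, *Tlr4*, *Tlr5* and *Tlr6* act at the cell surface, where they bind lipids and proteins of bacteria and fungi. *Tlr3*, *Tlr7*, *Tlr8*, *Tlr9* and *Tlr13* act in endosomes, where they bind nucleic acids. Their extracellular part is built from leucine-rich repeats, and a cytoplasmic TIR domain passes the signal to adaptors, to kinases and ubiquitin ligases and at last to NF-κB and interferon regulatory factors. Macrophages are among the cells that use them.

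A peak is a stretch of RNA enriched by the m6A antibody over the input, and its score, a number from the peak caller, was used only to rank peaks within a list. The lists held 6159, 6263, 6378 and 6684 peaks and no read counts, so the depth behind a peak is unknown. Absence of a listed peak is therefore no measured level of 0, and a weakly expressed mRNA, fewer cells that express it and an unmethylated mRNA cannot be told apart. *Mettl3* itself had 0 peaks in each list, which gives no check of the genotypes. Both KO lists lay above both WT lists in the number of peaks and in their median width, which is given below. The KO lists also shared 1201 peaks with the same start and the same end, where every other pair of lists shared between 276 and 426, although no shared peak with a score below 3100 had the same score in both. The edges of peaks that did not lie on an exon edge coincided to the base for 21.7% of the smaller KO list and for 3.24% to 3.96% in the other pairs. Whether the KO lists are independent of each other was not tested, and the spread between them may therefore be too small.

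Every one of the 10 receptor genes had a peak in at least 1 list, and 6 had a peak in all 4 lists. These 6 were the surface receptors *Tlr2* and *Tlr4* and the endosomal receptors *Tlr3*, *Tlr8*, *Tlr9* and *Tlr13*. Over all protein-coding genes, 32.1% had a peak in any list and 9.78% in all 4 lists, which is 30.4% of the former. The receptor genes *Tlr11* and *Tlr12* were not among the 10 and had 0 peaks in each list. Since the 10 were chosen with earlier results of these data known, a peak on every one may follow from the choice. The other 4 receptors varied between mice of a genotype. *Tlr6* had peaks in every list but KO-2, *Tlr1* in WT-2 and KO-2, *Tlr5* in KO-1 only and *Tlr7* in WT-2 only.

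Of the 43 peaks on the receptors, 42 had their midpoint in the coding sequence (CDS), where between 47.5% and 54.9% of all assigned peaks of a list lay. The 43 count a stretch of mRNA once for each list with a peak there. The exception was a peak of 318 bp in KO-1 over the 5′-UTR and start codon of *Tlr4*. Counted by bases, the CDS held between 84.3% (KO-2) and 90.3% (WT-1) of the receptor bases under peaks, and the 3′-UTR held between 9.66% (WT-1) and 15.2% (KO-2). The CDS is also the largest part of each receptor transcript, from 2508 of 4077 bp in *Tlr4* to 3099 of 3431 bp in *Tlr8*. What part this has in the CDS shares was not tested.

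**Figure D1:**
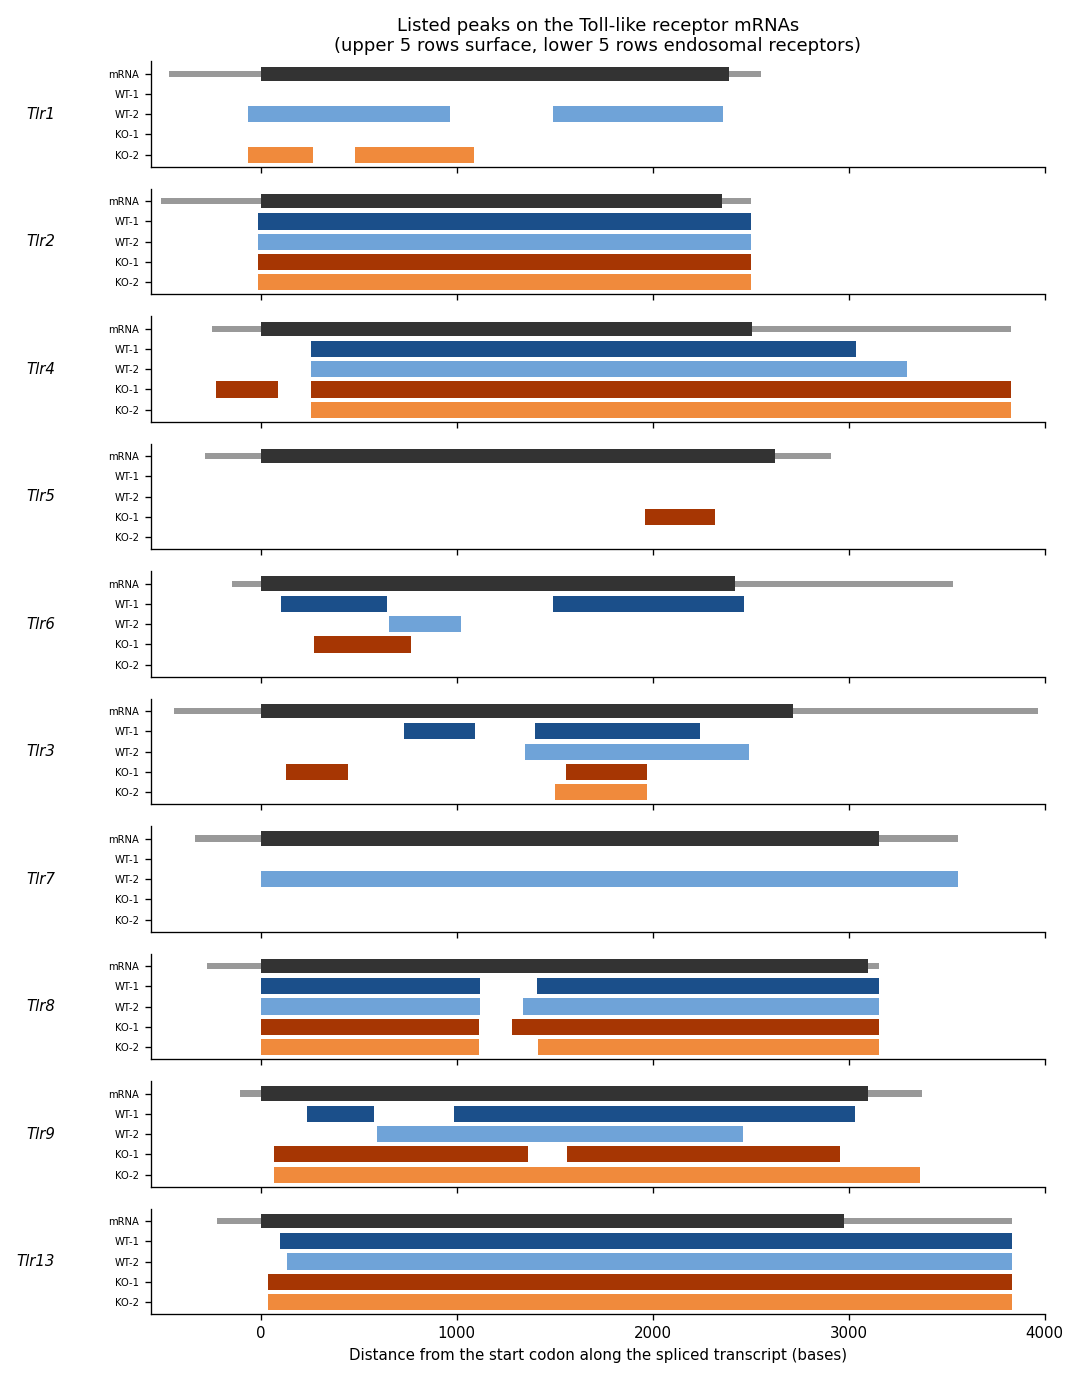
Peaks of each mouse along the spliced mRNA of the 10 receptors, in bases from the start codon. In the mRNA line the thick bar is the CDS and the thin bars are the UTRs, and the coloured bars are the listed peaks. *Tlr2*, *Tlr4*, *Tlr8*, *Tlr9* and *Tlr13* were covered over most of their length in all 4 lists, while *Tlr5* and *Tlr7* had a peak in 1 list each.

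Most m6A in mammalian mRNA lies in the consensus DRACH, of which GGAC is the most frequent core. For each region with a peak in all 4 lists, the GGAC nearest to the mean midpoint of its peaks is shown here with 13 bases on either side, to place the peaks on the receptor mRNAs. The sequences are those of the GRCm38 reference on the strand of the transcript, 5′ to 3′, with GGAC in capitals, and all 7 lie in the CDS.
*Tlr2*, chr3:83836919-83836948, minus strand, codon 614: ccaccatttccacGGACtgtggtacctgag
*Tlr4*, chr4:66841007-66841036, plus strand, codon 684: cgagtcagaatgaGGACtgggtgagaaatg
*Tlr3*, chr8:45398060-45398089, minus strand, codon 595: gagcatcaatctaGGACtgaataacttaaa
*Tlr8*, chrX:167245122-167245151, minus strand, codon 239: ggaagacttcaaaGGACtggaaaatttaac
*Tlr8*, chrX:167243822-167243851, minus strand, codon 673: cgtttctttaattGGACattactccagtat
*Tlr9*, chr9:106224932-106224961, plus strand, codon 479: tcaagttcaccatGGACctgtctcggaaca
*Tlr13*, chrX:106158547-106158576, plus strand, codon 635: cctctgtattcctGGACcaccaccaatttg
The codon is the one that holds the A of GGAC. The *Tlr9* site lay 2.83 bases from the mean midpoint but in a gap between the 2 peaks of KO-1, and the others lay under a peak in all 4 lists. Those others were not all near the midpoint. The distance was 597.5 bases for *Tlr2*, 172.75 for *Tlr4*, 24.9 for *Tlr3* and 52.4 for *Tlr13*. For *Tlr8* it was 157.6 at codon 239 and 242.9 at codon 673. A T follows GGAC in 4 of the 7, where 56 of the 123 GGAC on the 10 transcripts are followed by T. These are matches to the reference and not measured sites of methylation, since the peaks are far wider than the motif.

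Among the surface receptors, *Tlr2* and *Tlr4* carried long peaks in every mouse. *Tlr2*, which senses bacterial lipoproteins together with *Tlr1* or *Tlr6*, has its whole CDS of 2355 bp in exon 3. The peak was that exon from end to end, chr3:83836272-83838789 on the minus strand, in each of the 4 lists, so that 83.5% of the transcript lay under a peak in every mouse. The *Tlr2* exon holds only 5 GGAC, and its CDS has a stretch of 1695 bp without any.

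*Tlr4*, the receptor for lipopolysaccharide, has 89.8% of its CDS in exon 3. Its long peak began at the start of that exon in each list, and it ended in the 3′-UTR at base 3039 from the start codon in WT-1 and 3297 in WT-2, and at base 3829, the end of the exon, in both KO lists. The share of the transcript under peaks was 68.2% and 74.6% in the WT mice and 95.4% and 87.6% in the KO mice. Both KO mice thus lay above both WT mice, by 20.1 percentage points in the mean, and 8 of the 12 GGAC of the transcript lay under a peak in all 4 lists.

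*Tlr1* and *Tlr6* lie side by side on chromosome 5 and encode the partners of TLR2. *Tlr1* was covered over 62.8% of its transcript in WT-2 and 31.1% in KO-2 and had no peak in WT-1 and KO-1. *Tlr6* was covered over 41.3% in WT-1, 10.0% in WT-2 and 13.5% in KO-1 and had no peak in KO-2. No mouse order by genotype was seen in either gene. WT-1 and KO-1, which had no *Tlr1* peak, had peaks on *Tlr6*, KO-2 had peaks only on *Tlr1*, and WT-2 had peaks on both genes.

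The 2 genes are also near copies of each other, with 75.5% identity over the aligned CDS and a longest identical run of 229 bp, where the next longest run between any 2 of the receptors was 18 bp. Reads from such a run cannot be placed on 1 gene, and how the authors placed them is not given in the sources used here. Of the *Tlr1* peak at the end of the CDS in WT-2, 47.8% lay in runs of at least 100 bp identical in *Tlr6*, and of the *Tlr6* peak at the same place in WT-1, 46.2% lay in runs shared with *Tlr1*. The other 6 peaks on the pair held 0 bases of such runs, so these 2 peaks are uncertain and the others lie on sequence without such a run.

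*Tlr5*, the receptor for bacterial flagellin, had a single peak of 358 bp in KO-1, over 11.2% of its transcript, although 2584 of its 2622 coding bases lie in exon 4. Its 0 peaks in WT-1, WT-2 and KO-2 leave no comparison by genotype.

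Among the endosomal receptors, *Tlr13*, which senses bacterial ribosomal RNA, was the most completely covered of the 10. Peaks took up 92.0% and 91.1% of its transcript in the WT mice and 93.6% in both KO mice, and all 13 of its GGAC lay under a peak in all 4 lists. The KO peaks were the same to the base and spanned the whole of exon 3 from base 37 of the CDS on, while the WT peaks began further into the exon. The KO mice lay above the WT mice by 2.01 percentage points in the mean.

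*Tlr8*, a receptor for single-stranded RNA, was covered over 83.4%, 85.5%, 87.0% and 83.0% of its transcript in the 4 mice, and the genotypes overlapped. It had 2 peaks in each list, with the same gap in the CDS between them. The gap measured 293 and 220 bp in the WT mice and 170 and 305 bp in the KO mice. Bases 1120 to 1282 from the start codon, 163 bp, were without a peak in every list, and this stretch holds 0 GGAC. *Tlr8* has the sparsest GGAC of the 10 receptors in its CDS, at 1.94 per kb. The *Tlr8* sequences shown above, at codons 239 and 673, lie on either side of the gap.

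*Tlr9*, the receptor for unmethylated CpG DNA, has the densest, at 6.78 GGAC per kb of CDS. Its transcript was covered over 68.7% and 53.7% in the WT mice and over 77.2% and 94.8% in the KO mice. Both KO mice lay above both WT mice, by 24.8 percentage points in the mean, and the lowest KO and the highest WT mouse were closer to each other than the mice within either genotype. The peak was unbroken in WT-2 and KO-2 and split in WT-1 and KO-1.

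*Tlr3*, the receptor for double-stranded RNA, is the only member with less than 2000 coding bases in 1 exon, with 1853 bp or 68.2% of its CDS in exon 6. Of its transcript, 27.4% and 25.9% lay under peaks in the WT mice and 16.5% and 10.7% in the KO mice. It was the only receptor with a peak in all 4 lists that was less covered in both KO mice than in both WT mice. A stretch of 409 bp, from base 1561 to base 1969 of the CDS, was under a peak in every list, and the peak of KO-1 was that stretch exactly. KO-2 had the least cover but a peak with a score of 3100. Of all assigned peaks in KO-2, 19.5% had that score or more. In the other lists, the highest *Tlr3* peak had a score at or above that of 65.7% of the peaks in WT-1, 38.1% in WT-2 and 52.2% in KO-1.

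*Tlr7*, a receptor for single-stranded RNA and the neighbour of *Tlr8* on the X chromosome, had 1 peak, in WT-2. This peak of 3560 bp spanned the last exon and 91.3% of the transcript, and its score was at or above that of only 21.6% of the peaks of its list. WT-1, KO-1 and KO-2 had 0 peaks on *Tlr7*, where *Tlr8* had 2 peaks in each list.

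**Figure D2:**
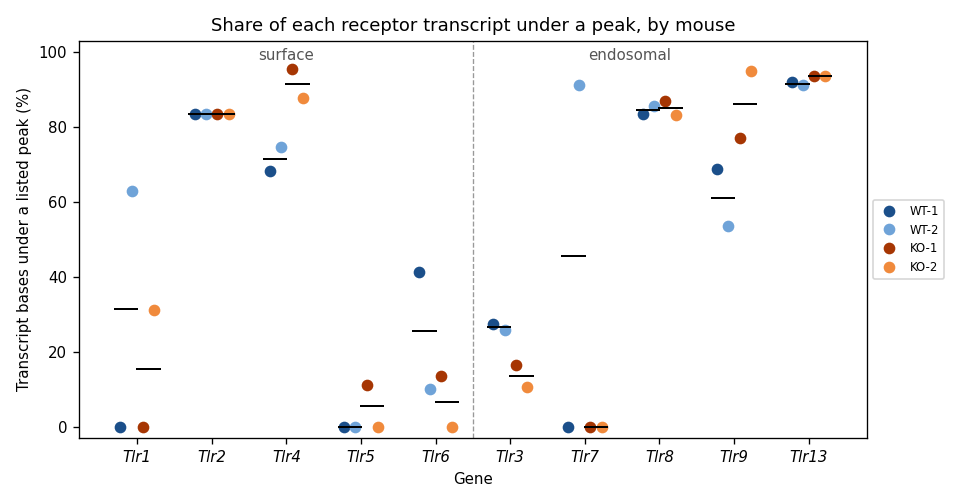
Share of the spliced transcript of each receptor under a listed peak, in percent, with 1 point per mouse and a black line at the mean of each genotype (2 WT and 2 KO mice). KO mice lay above WT mice for *Tlr4*, *Tlr9* and *Tlr13* and below them for *Tlr3*, and the 4 mice had the same value for *Tlr2*.

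Between genotypes, 7 and 9 receptors had a peak in the WT mice and 8 and 7 in the KO mice, where 19.2%, 19.9%, 19.3% and 20.4% of all protein-coding genes had a peak. WT mice averaged 8 ± 1.41 (SD, n = 2) and KO mice 7.5 ± 0.707 (SD, n = 2) receptors with a peak (exact permutation test over the 6 labellings, two-sided, p = 1). With 2 mice against 2, this test cannot go below 0.33. The receptors carried 11 and 11 peaks in the WT mice and 12 and 9 in the KO mice (two-sided exact permutation test, p = 1). Peaks took up 17011, 21023, 17455 and 17446 bases of the receptor transcripts (two-sided exact permutation test, p = 1). WT-2 stood highest, and the *Tlr7* peak alone brought it 3557 bases. The KO minus WT differences of -0.5 receptors, -0.5 peaks and -1566.5 bases depended on single lists. Without WT replicate 1 they were -1.5, -0.5 and -3572.5, and without WT replicate 2 they were 0.5, -0.5 and 439.5. Without KO replicate 1 they were -1, -2 and -1571, and without KO replicate 2 they were 0, 1 and -1562.

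No receptor lost its peaks in both KO mice while keeping them in both WT mice, and none showed the reverse. Over the genes with a peak in any list, 3.84% did the first and 4.88% the second. Overlapping peaks of the 4 lists were merged into regions, and the receptors held 16 of them. Of these, 7 had a peak in all 4 lists, 1 in 3 lists, 1 in 2 lists and 7 in 1 list, against 17.8% of the 12350 regions of all genes in all 4 lists. The receptors had 0 regions with a peak in both WT lists and neither KO list and 0 of the reverse kind, where 3.32% and 6.19% of all regions were such. Without WT replicate 1 or WT replicate 2, which leaves presence in WT to 1 list, 2 receptor regions met the first criterion, and without KO replicate 2, 3 met the second.

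The share of the transcript under peaks was higher in both KO mice than in both WT mice for 3 of the 10 receptors, *Tlr4*, *Tlr9* and *Tlr13*, and lower for 1, *Tlr3*. By the same criterion 18% were higher and 8.22% lower of the genes that had any listed peak, and 29.1% higher and 9.32% lower of those with a peak in all 4 lists, a class that holds 6 receptors. Counts of 3 and 1 do not set the receptors apart from these shares. Peaks also covered more bases over all genes in the KO mice, at 3873437 and 4374640, than in the WT mice, at 3570198 and 3782902. Whether the KO lists' wider cover over all genes has a part in the values of *Tlr4*, *Tlr9* and *Tlr13* was not tested. When lists were cut to their upper 50% by score, the count of less covered receptors became 0.

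The KO lists also resembled each other most on the receptors. The Jaccard index, the bases under a peak in both lists over those under a peak in either, was 0.830 for KO-1 and KO-2, 0.594 for WT-1 and WT-2 and 0.596 to 0.751 across genotypes. On the receptors, 3 peak edges within exons were the same to the base in the KO lists, on *Tlr3*, *Tlr8* and *Tlr9*, and 0 in each other pair.

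Surface and endosomal receptors were compared within each mouse. *Tlr11* and *Tlr12*, with 0 peaks in each list, were counted in neither class, and the differences with them included were not computed. Counting them would lower the values of the class that held them, so the class differences below hold for these 10 genes only and depend on this choice. Peaks were found on 60%, 80%, 80% and 60% of the 5 surface receptors and on 80%, 100%, 80% and 80% of the 5 endosomal receptors. The surface receptors were lower in 3 of the 4 mice and equal in KO-1, with a mean difference of -15 percentage points (two-sided exact sign-flip permutation test over the 4 mice, p = 0.25).

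Of the summed transcript bases, 40.1%, 46.1%, 42.7% and 41.4% lay under peaks in the surface class and 52.9%, 68.5%, 52.9% and 54.0% in the endosomal class. The surface class was lower in 4 of 4 mice, with a mean difference of -14.5 percentage points (two-sided exact sign-flip permutation test, p = 0.13, the smallest that 4 mice allow). It was -16.0 without KO replicate 1 and -15.1 without KO replicate 2. The difference between the classes was 6.20 percentage points smaller in KO than in WT mice (two-sided exact permutation test, p = 0.33). This value was 11.02 without WT replicate 1 and 1.37 without WT replicate 2. After Benjamini-Hochberg adjustment over the 8 tests made, p from these permutation tests was between 0.889 and 1.

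The size of this difference depended on which receptors were counted, in settings chosen after seeing the data. With each of the 10 receptors left out singly, it ranged from -26.8 percentage points without *Tlr4* to -5.02 without *Tlr13*, and it was -5.27 without *Tlr5*, -7.21 without *Tlr6* and -10.4 without *Tlr1*. Without both *Tlr1* and *Tlr6*, the pair of near copies, the surface class lay 0.542 percentage points above the endosomal class in the mean (two-sided exact sign-flip permutation test, p = 1). Both are little covered, so leaving them out had to narrow the difference. In how often a peak recurred, of 8 regions on surface receptors 2 had a peak in all 4 lists, and of 8 regions on endosomal receptors 5 did. This difference was not tested, since regions of a gene are not replicates.

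Peaks on the receptors were wide. Their median width was 1293 bp over the 43 peaks, and 1116, 1821, 1201 and 1740 bp in the 4 lists, where all assigned peaks had medians of 481, 500, 504 and 546 bp. A width of at least 1000 bp was reached by 28 of the 43, against 14.7% to 19.4% of all assigned peaks. Surface receptors had 9 such peaks of 18 and endosomal receptors 19 of 25. The widest in each list was that of *Tlr13*, at 3735, 3700, 3799 and 3799 bp, and the narrowest, at 316 bp, lay on *Tlr3* in KO-1.

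Both ends of the peak lay on exon edges for 1, 1, 3 and 3 receptor peaks, where between 6.67% and 11.2% of all assigned peaks had this form. A score of 3100 or more was held by 17 of the 43 receptor peaks, 7 on surface and 10 on endosomal receptors. By list these were 3, 6, 3 and 5 peaks, where 10.3%, 13.5%, 16.2% and 19.5% of all assigned peaks had such a score. *Tlr4* and *Tlr13* had such a peak in all 4 lists, *Tlr8* in all 4 lists as well, *Tlr2* in WT-2 and KO-2, *Tlr3* in KO-2 and *Tlr1* in WT-2.

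**Figure D3:**
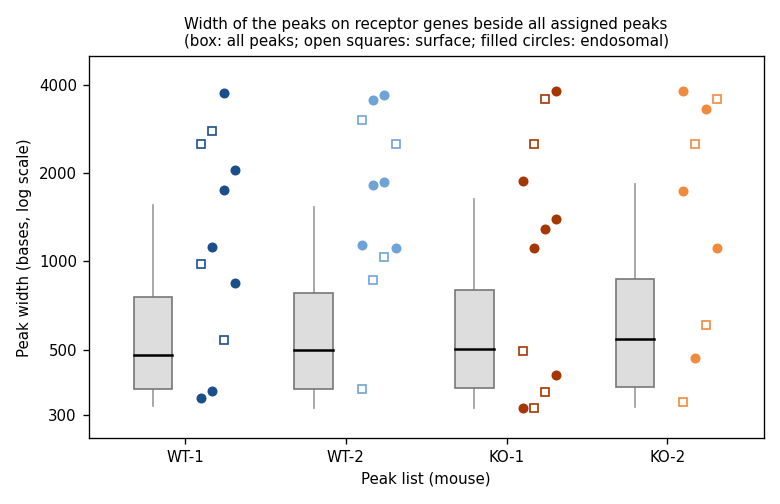
Width of the receptor peaks in each list, in bases on a log scale, with open squares for surface and filled circles for endosomal receptors, beside all assigned peaks (box from the lower to the upper quartile, black line at the median, whiskers from 5% to 95% of peaks). Receptor medians lay between 1116 and 1821 bp, above the medians of 481 to 546 bp over all peaks.

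Most of the receptors share a gene structure, which was known when the genes were chosen by name. In 9 of them at least 2000 coding bases lie in 1 exon, from 2251 in *Tlr4* to 3150 in *Tlr7*. Genes of this kind often had peaks. The share of genes with a peak in all 4 lists was 4.03% where no exon held 250 coding bases, 7.79% from 250 to under 500, 11.8% from 500 to under 1000, 23.9% from 1000 to under 2000 and 33.2% of the 719 genes with 2000 or more. For a peak in any list the latter share was 53.1%. The receptors, at 6 of 10 and 10 of 10, thus stood beside 33.2% and 53.1% and not only beside 9.78% and 32.1%, and what part the exon length has in their peaks was not tested. The 10 leave out *Tlr11* and *Tlr12*, which had 0 peaks although 1 exon holds 2786 and 2721 of their coding bases. The value of 10 of 10 may therefore follow from which genes were taken. Expression, which the lists do not give, was not compared.

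Peaks were also wider in the genes with 2000 or more coding bases in 1 exon, with a median of 616 bp against 452.5 bp for under 250 bases, and 28.2% of them reached 1000 bp. The receptor median of 1293 bp was wider than that of the last class. Among genes with a peak in all 4 lists, peaks covered a median of 32.1% of the transcript in the last class and 82.5% in the 6 receptors, of which only *Tlr3* lay below 32.1%, at a mean of 20.1%. *Tlr3* belongs to the class from 1000 to under 2000 coding bases, where the median was 28.0%.

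**Figure D4:**
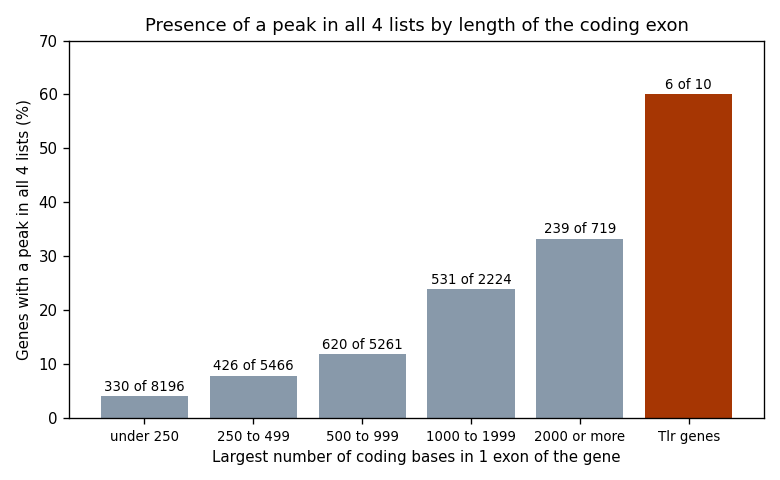
Share of genes with a peak in all 4 lists, in percent, by the largest number of coding bases in 1 exon (grey bars, all protein-coding genes with the count above each bar), beside the 10 receptors. The share rose from 4.03% to 33.2% with the length of the coding stretch and was 6 of 10 for the receptors. The 10 leave out *Tlr11* and *Tlr12*, which had 0 peaks.

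The motif GGAC, searched on the transcript strand only, was found in 100% of the receptor peaks in WT-1, WT-2 and KO-2 and in 91.7% in KO-1, against 87.0% to 88.6% of all assigned peaks. Among all peaks of at least 1000 bp, between 98.8% and 99.3% held it, so wide peaks nearly always do. The receptor peak without it was that of 316 bp on *Tlr3* in KO-1. The density of GGAC was close to equal inside and outside the receptor peaks. The ratio of the former to the latter was 1.01 and 0.926 in the WT mice and 0.962 and 1.10 in the KO mice, with 3.28 to 3.55 GGAC per kb inside. The CDS of the surface receptors holds 3.17 GGAC per kb and that of the endosomal receptors 3.59.

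The pathway around the receptors was followed in a list of 40 genes. Of these, 16 and 22 had a peak in the WT mice and 15 and 17 in the KO mice, on average 19 ± 4.24 (SD, n = 2) and 16 ± 1.41 (SD, n = 2) genes (two-sided exact permutation test, p = 0.667). The KO minus WT difference of -3 genes was -6 without WT replicate 1 and 0 without WT replicate 2. A peak in all 4 lists was found on 13 genes, 32.5% of the list, where 9.78% of all genes had one. No peak was found on 16 genes, among them the receptors *Tlr11* and *Tlr12*.

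Among 6 co-receptors and ligand carriers, *Cd180*, a surface relative of TLR4, and *Ly86*, which encodes its partner MD-1, had peaks in all 4 lists. The *Cd180* peak was of the receptor kind, in the CDS and over 82.4%, 84.3%, 81.1% and 84.9% of the transcript. The *Ly86* peak lay in the 3′-UTR and covered 43.9% in each list. Of the 5 genes for folding and trafficking, *Slc15a3*, an endolysosomal peptide transporter, had peaks in all 4 lists.

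Of 5 adaptors, 3 had peaks in all 4 lists. These were *Tirap*, which brings MyD88 to the membrane, *Ticam1*, which encodes TRIF, the adaptor of TLR3, and *Ticam2*, which encodes TRAM, its bridge to TLR4. *Pik3ap1*, the adaptor BCAP that links receptors to PI3K, was the only gene of the list with a peak in both WT lists and neither KO list, and 0 genes showed the reverse, where 3.84% and 4.88% of the genes that had any listed peak did so. Its WT peaks lay at different places, over 2.14% of the transcript in WT-1 and 8.79% in WT-2. Of 5 inhibitors only *Tnfaip3*, which encodes the ubiquitin-editing enzyme A20, had peaks in all 4 lists.

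The 12 kinases and ubiquitin ligases, counted with their partner proteins, held 6 genes with peaks in all 4 lists. *Irak1* is a kinase recruited by MyD88, *Traf3*, *Traf6* and *Peli1* encode ubiquitin ligases downstream, and *Map3k7* encodes the kinase TAK1 and *Tab2* its ubiquitin-binding partner. Of the 5 transcription factors 0 had a peak in all 4 lists.

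The 65 peaks of these 13 genes lay elsewhere on the mRNA than those of the receptors. Their midpoints fell in the 3′-UTR for 42, in the CDS for 20 and in the 5′-UTR for 2, and 1 lay outside the longest coding transcript. The median share of the transcript under peaks was 37.1%, from 7.82% to 83.2%.

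**Figure D5:**
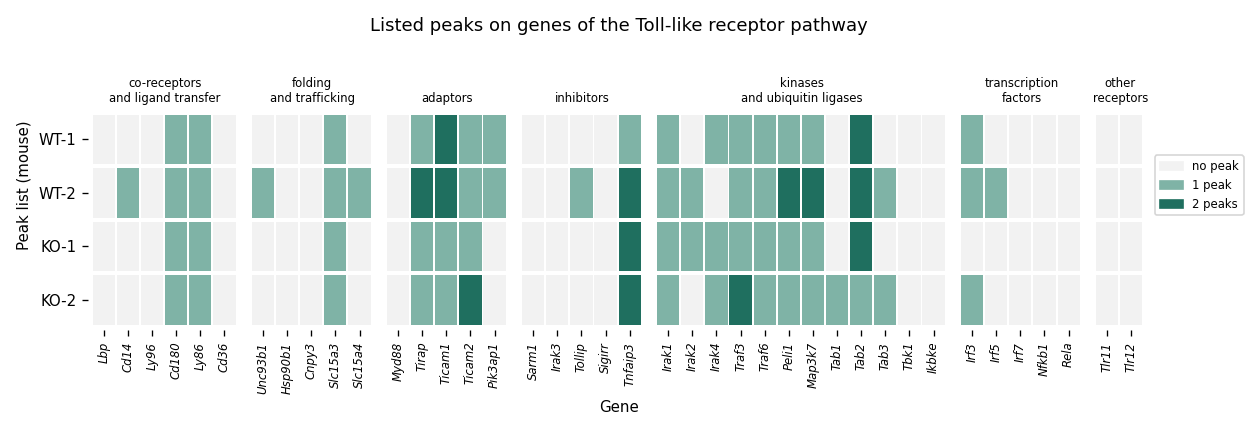
Number of listed peaks on each of the 40 pathway genes, grouped by role along the horizontal axis, in the lists of the 4 mice. The 13 genes with a peak in all 4 lists were spread over the roles except the transcription factors and the other receptors.

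Markers of cell types were also read in the lists. Of the macrophage markers, *Mertk*, a receptor for the uptake of apoptotic cells, had a peak in all 4 lists. Of the markers of neutrophils (6), T cells (4), B cells (4) and dendritic cells (4), 1 of each set had a peak in any list and 0 in all 4. *Csf1r*, *Adgre1*, *Itgam*, *Cd68* and *Spi1*, which define macrophages, had 0 peaks, so a peak list, which needs methylation as well as expression, does not check the cell type.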

How the data were processed

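MeRIP-Seq measured m6A in RNA of BMDMs from 2 WT mice and 2 KO mice, each with 1 library from the IP and 1 from the input. The authors called peaks for each mouse and deposited 4 lists with position, strand and a score from the peak caller, with no read counts. The submitters' processing notes name cutadapt 1.9.3, HISAT2 2.0.4 and mm10 (GRCm38). The peak caller and its settings are not given in the sources used here, and the peak names have the form of MACS output.

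Peaks were assigned to exons of GENCODE M21 (overlap of at least 1 bp), placed on the longest coding transcript and merged across lists. Genotypes were compared by exact permutation tests and receptor classes by exact sign-flip permutation tests, with Benjamini-Hochberg adjustment. Replicate numbers were not used as pairs, since the differences between replicates of the genotypes had a correlation of 0.00733 over 12350 regions. The scripts were tested on simulated peaks. As alternatives, lists were cut to the upper 50% of their peaks by score or to 6159 peaks each, a replicate block was added, other motif, overlap and placement settings were used, and lists were left out singly.

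The members and lists were chosen with earlier results of these data known. The text names all members and, of the pathway list, the genes with a peak in all 4 lists, those with a peak in both lists of a genotype and neither of the other, and *Tlr11* and *Tlr12*. Markers were named after their peaks were seen. Some marker results are not reported here. Python 3.11.15, numpy 2.4.6, Biopython 1.88 and matplotlib 3.10.9 were used.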

Additional observations from a re-analysis of the deposited data

How the results depend on the processing

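Of 96 alternative values, 8 changed sign, 6 counts or shares moved and 82 did neither, although several of these changed in size or fell to 0, and the cause was not tested. With lists cut to their upper 50% by score, the KO minus WT difference was 0.5 receptors with a peak, 1 peak and 937 bases, and -1.09 percentage points for the difference between the classes, and the number of receptors less covered in KO was 0 (this count under this setting was chosen after seeing the data). With each list left out in turn, these differences ranged from -1.5 (without WT replicate 1) to 0.5 (without WT replicate 2) receptors, from -2 (without KO replicate 1) to 1 (without KO replicate 2) peaks and from -3572.5 (without WT replicate 1) to 439.5 (without WT replicate 2) bases. The pathway difference ranged from -6 (without WT replicate 1) to 0 (without WT replicate 2) genes and the genotype difference between the classes from 1.37 (without WT replicate 2) to 11.02 (without WT replicate 1) percentage points. WT-only regions ranged from 0 to 2 and KO-only regions from 0 to 3, since presence or absence then had to hold in 1 list only. Surface minus endosomal cover was 0.542 percentage points without *Tlr1* and *Tlr6* and between -26.8 and -5.02 with 1 receptor left out, both chosen after seeing the data. The share of receptor peaks with the motif was 97.9% as a mean of the lists, 91.3% for GGACT and 51.4% in the central 200 bp of peaks. For GGACT and for the central 200 bp, no share over all assigned peaks stands beside these values, so they do not compare the receptors with other genes.

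Labels give both genotypes the numbers 1 and 2 but no shared litter or batch. With the replicate block, the differences were -0.5 receptors, -0.5 peaks, -1566.5 bases, -3 pathway genes and 6.20 percentage points, as without it, and p from 2 pairs cannot go below 0.5. Depth is unknown, so peaks absent from a list may lie under its limit.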
